A study of Mus musculus with 62 samples.

Results

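The Runx family and its partner gene Cbfb were examined at 4 loci in CUT&Tag data of mouse haematopoietic stem and progenitor cells (HSPCs) that had lost the histone H3.3 chaperone Daxx. A locus was the gene body in the GENCODE M21 annotation of mm10 with 20 kb added on each side, and every listed site that overlapped it was a member. The 4 loci held 804 of 1743368 listed sites in 14 tables of comparisons, with 308 sites at Runx1, 275 at Runx2, 176 at Runx3 and 45 at Cbfb. Introns held 562 of these sites, the upstream flanks 89, the downstream flanks 78, coding exons 48, untranslated regions 22 and non-coding exons 5.

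CUT&Tag directs the Tn5 transposase with an antibody to chromatin that carries a protein or histone mark, and the DNA that it cuts is sequenced. Antibodies to H3.3, Pu.1, H3K27ac (a mark of active promoters and enhancers), H3K9me3 (a mark of heterochromatin) and H3K27me3 (the Polycomb mark) were used. The cells were Lin-/c-Kit+ bone marrow cells of C57BL/6 mice, enriched with magnetic beads. All mice carried 1 Cre allele. WT mice had the genotype Daxx +/+ Cre +/-, Daxx-KO mice Daxx F/F Cre +/-, and DKO mice Daxx F/F and Pu.1 F/F with Cre +/-. Neither the labels nor the CUT&Tag methods name the Cre line of these libraries. The study used both Mx1Cre and RosaCreER. Mx1Cre is induced by pI:pC in blood cells and in other cells that respond to interferon, and RosaCreER by tamoxifen in cells of all kinds. In the paper's methods the Pu.1 F/F line was crossed with Daxx F/F Mx1Cre mice. Mx1Cre mice of the Daxx-KO and DKO lines were injected with pI:pC. For RosaCreER the methods name no time later than 3 weeks after induction, so the line is least certain for the libraries of that time. Time is given as weeks post induction (w.p.i.), and the ages of the mice are not given in the labels. At 3 and 24 w.p.i. Daxx-KO was compared with WT with 2 libraries per group, and at 8 w.p.i. WT, Daxx-KO and DKO were compared in pairs with 3 libraries per group for H3K9me3 and H3K27me3. At 24 w.p.i. the 5 antibodies were used on the same mice, and at 3 w.p.i. H3.3 and Pu.1 shared mice while H3K27ac and H3K9me3 came largely from others.

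A table lists only the stretches at which the authors' comparison found a difference, so a region with no listed site has no value here. The value of a site is its number of reads in a library after normalization, called normalized reads below. Since the sites were selected by that comparison, no test was made on them, and 2 libraries against 2 could reach no exact permutation p below 0.333 and 3 against 3 none below 0.10. A site is called higher or lower by the means of its libraries, and the log2 ratio of the means was computed after adding 1 to each mean. Intervals of shares are Wilson 95% intervals, which cover counting error only and treat neighbouring sites as independent, which they are not. In bulk samples of this kind, a change in the number of cells of a type and a change in signal per cell cannot be told apart.

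RUNX1, RUNX2 and RUNX3 are transcription factors that share the Runt DNA-binding domain, which reads the letters TGTGGT. CBFB binds no DNA itself. It forms a heterodimer with each RUNX protein and makes its DNA binding tighter. Runx1 is required for the emergence of haematopoietic stem cells and for megakaryocyte and lymphoid development, Runx2 is the master regulator of bone formation and is also active in early blood progenitors, and Runx3 acts in T cells and other lymphocytes. Each Runx gene is read from a distal promoter, P1, and a proximal promoter, P2, which give proteins with different N-termini. Pu.1, encoded by Spi1, is a myeloid ETS factor that reads GAGGAA, and Spi1 itself is a target of RUNX1.

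On mm10, Runx1 (ENSMUSG00000022952.17) spans chr16:92601466-92826149 on the minus strand, Runx2 (ENSMUSG00000039153.16) chr17:44495987-44814797 on the minus strand, Runx3 (ENSMUSG00000070691.10) chr4:135120652-135177990 on the plus strand and Cbfb (ENSMUSG00000031885.14) chr8:105170674-105217989 on the plus strand. P1 and P2 lie 128.821 kb apart at Runx1, 78.149 kb at Runx2 and 31.844 kb at Runx3. The loci also hold parts of other genes, among them Supt3 and Runx2os1 at Runx2, Gm16225 at Runx3 and D230025D16Rik at Cbfb. Runx2 lies 10.6 Mb from Daxx on chromosome 17, so both genes are on the chromosome that carries the conditional Daxx allele.

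The promoters of the 4 genes show what the family shares and where its 2 kinds of promoter differ. They are RefSeq promoters on GRCm38.p6, 250 bases before to 50 after the transcription start, written 5′ to 3′ in the direction of the gene. Of the RUNX genes, the table holds no P2 entry for Runx2. In the distal promoters the RUNX letters TGTGGT or ACCACA are in capitals.
Runx1 P1, chr16:92826025-92826324, minus strand: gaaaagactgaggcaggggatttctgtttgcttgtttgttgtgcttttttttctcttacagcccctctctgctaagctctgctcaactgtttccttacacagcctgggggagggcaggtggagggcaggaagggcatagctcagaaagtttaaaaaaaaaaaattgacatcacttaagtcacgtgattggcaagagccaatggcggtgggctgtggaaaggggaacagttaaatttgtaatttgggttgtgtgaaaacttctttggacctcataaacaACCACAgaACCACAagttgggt
Runx2 P1, chr17:44814578-44814877, minus strand: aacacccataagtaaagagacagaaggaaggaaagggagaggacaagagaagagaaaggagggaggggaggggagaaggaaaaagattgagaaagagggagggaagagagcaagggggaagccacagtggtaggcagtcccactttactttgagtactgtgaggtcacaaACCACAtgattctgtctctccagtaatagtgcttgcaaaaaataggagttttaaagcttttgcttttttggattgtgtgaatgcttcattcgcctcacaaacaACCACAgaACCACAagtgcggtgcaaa
Runx3 P1, chr4:135120395-135120694, plus strand: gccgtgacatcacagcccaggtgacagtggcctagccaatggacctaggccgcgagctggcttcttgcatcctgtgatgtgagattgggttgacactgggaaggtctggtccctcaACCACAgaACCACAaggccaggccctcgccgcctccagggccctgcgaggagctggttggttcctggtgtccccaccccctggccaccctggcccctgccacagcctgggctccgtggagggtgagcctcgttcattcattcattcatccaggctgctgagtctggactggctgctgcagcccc
The proximal promoters of Runx1 and Runx3 and the promoter of Cbfb hold no match to these letters. In the Runx1 P2 and Cbfb promoters the Pu.1 letters GAGGAA or TTCCTC are in capitals, and Runx3 P2 has no match to either.
Runx1 P2, chr16:92697280-92697579, minus strand: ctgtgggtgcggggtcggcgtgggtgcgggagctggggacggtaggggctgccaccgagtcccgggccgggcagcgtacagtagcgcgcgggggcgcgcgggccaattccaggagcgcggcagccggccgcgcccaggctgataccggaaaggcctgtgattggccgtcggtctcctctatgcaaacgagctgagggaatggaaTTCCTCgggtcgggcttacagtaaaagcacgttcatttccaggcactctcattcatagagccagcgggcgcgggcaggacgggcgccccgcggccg
Runx3 P2, chr4:135152295-135152594, plus strand: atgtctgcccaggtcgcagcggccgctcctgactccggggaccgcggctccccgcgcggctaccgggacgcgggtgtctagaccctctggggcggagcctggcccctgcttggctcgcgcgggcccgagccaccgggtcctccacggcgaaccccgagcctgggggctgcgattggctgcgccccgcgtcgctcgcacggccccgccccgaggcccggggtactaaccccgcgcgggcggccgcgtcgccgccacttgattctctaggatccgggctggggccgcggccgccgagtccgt
Cbfb, chr8:105170424-105170723, plus strand: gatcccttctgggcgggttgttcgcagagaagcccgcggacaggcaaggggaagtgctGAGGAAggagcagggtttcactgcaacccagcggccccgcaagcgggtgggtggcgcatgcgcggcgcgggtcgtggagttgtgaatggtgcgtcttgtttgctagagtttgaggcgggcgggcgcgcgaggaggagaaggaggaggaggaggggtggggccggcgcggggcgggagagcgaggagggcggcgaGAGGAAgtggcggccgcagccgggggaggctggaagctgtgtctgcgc

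The 3 distal promoters held 2, 3 and 2 RUNX matches at Runx1, Runx2 and Runx3, and 2 of these matches stood side by side in a run of 18 bases that all 3 promoters share.
Shared run: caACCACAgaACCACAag
Only 4 of 32851 RefSeq mouse promoters held this run, the fourth being that of Gm16225, which lies at Runx3. On both strands, 16.8% of all these promoters held at least 1 RUNX match and 1.81% at least 2. The Pu.1 letters were found in 28.3% of promoters, with 2 matches or more in 4.82%, and the Cbfb promoter held 2. The distal promoters of Runx1, Runx2 and Runx3 had GC contents of 45%, 45.3% and 63.7%. The proximal promoters of Runx1 and Runx3 had 69.0% and 77.3%, and that of Cbfb 69.7%. Low GC content was thus not shared by all distal promoters. Such matches describe the letters only and are not evidence of a bound site.

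A pair of 300-base stretches from listed sites is shown because the sites had high signal in both states and recur below. The first, with the RUNX letters in capitals, comes from the H3K27ac site in the Runx1 intron upstream of P2. The second, with the Pu.1 letters in capitals, comes from the Pu.1 site in the Runx3 intron downstream of P2. Both are mm10 genome sequence on the plus strand.
Runx1 intron, chr16:92717225-92717524: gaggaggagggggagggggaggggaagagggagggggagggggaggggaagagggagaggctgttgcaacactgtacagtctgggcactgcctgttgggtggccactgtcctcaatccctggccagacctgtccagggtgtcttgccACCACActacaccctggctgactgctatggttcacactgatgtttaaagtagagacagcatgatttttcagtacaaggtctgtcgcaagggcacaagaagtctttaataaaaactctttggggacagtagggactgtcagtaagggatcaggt
Runx3 intron, chr4:135158989-135159288: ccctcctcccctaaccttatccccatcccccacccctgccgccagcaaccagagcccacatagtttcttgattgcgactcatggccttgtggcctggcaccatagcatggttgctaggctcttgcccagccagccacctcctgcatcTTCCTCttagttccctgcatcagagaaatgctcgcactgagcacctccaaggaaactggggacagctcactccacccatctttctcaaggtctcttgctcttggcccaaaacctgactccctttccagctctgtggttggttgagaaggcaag

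The libraries had mean reads per 600-bp window of 1.21 to 33.78 at 3 w.p.i., 0.2 to 3.29 at 8 w.p.i. and 3.97 to 10.3 at 24 w.p.i. At 3 w.p.i. WT replicate 2 stood apart in depth, with 3.06 reads per window against 22.88 in replicate 1 for H3.3 and 2.75 against 33.78 for Pu.1. Signal inside the targeted gene went with the labels at 24 w.p.i., whereas H3K27ac at its ends was higher in Daxx-KO. An H3K27ac site inside Daxx at chr17:33909801-33913400 had 113 and 93.7 normalized reads in Daxx-KO against 858 and 368 in WT, and a Pu.1 site at chr17:33912801-33913750 had 0 in both Daxx-KO libraries and 63.3 and 44.2 in WT. H3K27ac at chr17:33908401-33909500 was 1570 and 1036 in Daxx-KO against 775 and 581, and at chr17:33914651-33916950 1875 and 1617 against 712 and 914. At 3 w.p.i. H3K27ac at chr17:33909601-33911450 was 24.2 and 13.6 in Daxx-KO against 65.6 and 105. The listed H3.3 and Pu.1 sites at the gene start, and H3K27ac at its end, were higher in Daxx-KO at that time. The tables list no level of a gene without a difference, so the purity of the HSPCs could not be read from them. All 5 HSPC markers (Kit, Cd34, Flt3, Gata2 and Mpo) had listed H3K27ac sites. At 3 w.p.i. 56 of 72 were higher in Daxx-KO, against 41.5% of all listed H3K27ac sites, and at 24 w.p.i. 63 of 105, against 42.5%. The genes differed, since Gata2 had only 2 of 8 higher at 3 w.p.i. and Cd34 only 3 of 11 at 24 w.p.i. The other markers had most of their sites higher in Daxx-KO at each time.

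At 3 w.p.i., H3.3 and Pu.1 signal at the loci was mostly higher in Daxx-KO. Of 91 H3.3 sites, 71 (78.0%, interval 68.5 to 85.3) were higher in Daxx-KO, against 59.4% of all listed H3.3 sites. The share was 33 of 38 at Runx1, 25 of 29 at Runx3, 9 of 17 at Runx2 and 4 of 7 at Cbfb, which put Runx1 and Runx3 above the background and Runx2 and Cbfb near it. Of 94 Pu.1 sites, 76 (80.9%, interval 71.7 to 87.5) were higher in Daxx-KO, against 56.0% of all listed Pu.1 sites, with 29 of 35 at Runx1, 20 of 25 at Runx2, 23 of 29 at Runx3 and 4 of 5 at Cbfb. The libraries of the groups did not overlap at 89 of the 91 H3.3 sites and 93 of the 94 Pu.1 sites, but this holds for 98.4% and 98.1% of all sites in those tables. Without the shallow WT replicate 2 the shares were 79.1% and 80.9%. Such shares were not particular to these loci. The 5 HSPC markers had 32 of 43 H3.3 and 32 of 44 Pu.1 sites higher. The erythroid markers Hba-a1 and Klf1 had 11 of 14 and 10 of 13. Lower counts were found for the B cell markers Cd79a and Ebf1, 13 of 29 and 18 of 31. The neutrophil markers Ly6g, S100a8 and Camp had 4 of 7 and 7 of 22, and the T cell markers Cd3e and Cd3g 2 of 4 and 3 of 4. Runx3 carried the densest listing, with 29.8 H3.3 sites per 100 kb, against 11.3 over the 4 loci and 5.75 over the autosomes.

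At 24 w.p.i. the loci had no such direction for H3.3 and Pu.1. H3.3 was higher in Daxx-KO at 47 of 98 sites (48%), against 52.6% of all sites, and the libraries did not overlap at 96, against 98.3% of all. Pu.1 was higher at 49 of 110 sites (44.5%), against 48.2% of all, without overlap at 108, against 98.2%. Both shares lay near the background, and Runx3 had the lowest for H3.3 with 8 of 22.

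H3K27ac over the 4 loci together was above its background at both times, and the clearest excess lay at Runx2. At 3 w.p.i. 63 of 97 sites (64.9%) were higher in Daxx-KO, against 41.5% of all listed H3K27ac sites, with Runx2 at 37 of 46, Runx1 at 20 of 39, Runx3 at 4 of 7 and Cbfb at 2 of 5. At 24 w.p.i. 103 of 197 sites (52.3%, lower bound 45.3) were higher, against 42.5% of all, with 50 of 75 at Runx2, 17 of 29 at Runx3, 33 of 82 at Runx1 and 3 of 11 at Cbfb. Runx2 thus had the largest share of the 4 loci at either time, and Runx1 and Cbfb at 24 w.p.i. were not above the background. Only the intervals of Runx2 lay wholly above the background, at 66.8 to 89.3 and 55.4 to 76.3. That of Runx3 at 24 w.p.i., 40.7 to 74.5, included it. Without Runx2 the shares were 26 of 51 at 3 w.p.i. and 53 of 122 (43.4%) at 24 w.p.i. Among sites with a ratio of at least 2-fold, 55 of 88 (62.5%) were higher at 3 w.p.i., against 40.8% of all such sites, and 52 of 118 (44.1%) at 24 w.p.i., against 38.9%. The libraries did not overlap at 94 of 97 sites, against 97.6% of all, and at 188 of 197, against 97.3%.

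H3K27me3 at 24 w.p.i. was lower in Daxx-KO at nearly all sites of the loci. Only 6 of 55 sites (10.9%, interval 5.1 to 21.8) were higher, against 41.2% of all listed H3K27me3 sites, with 4 of 18 at Runx1, 0 of 13 at Runx2, 2 of 21 at Runx3 and 0 of 3 at Cbfb. The median log2 ratio over the 55 sites was -1.49, and the libraries did not overlap at 54, against 97.6% of all. H3K9me3 at 24 w.p.i. went the other way, with 29 of 42 sites (69.0%, lower bound 54.0) higher in Daxx-KO, against 48.1% of all. Runx1 held 11 of 13, Runx2 10 of 17 and Runx3 8 of 12, and no H3K9me3 site was listed at Cbfb. The libraries did not overlap at 41 of the 42, against 97.2%.

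**Figure D1:**
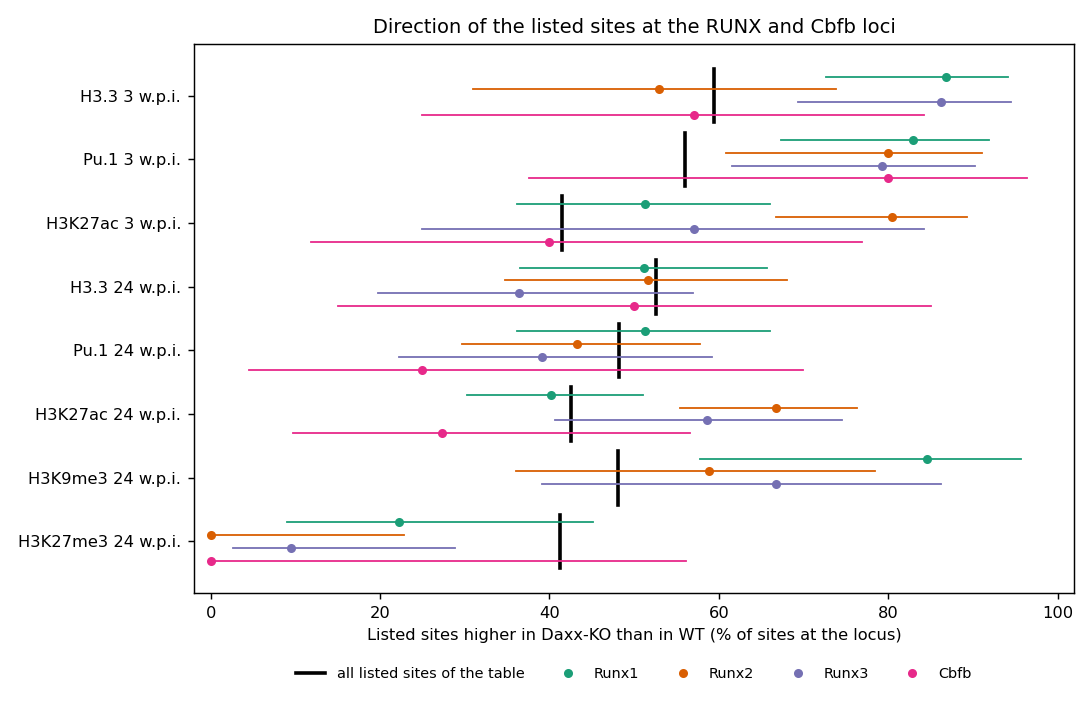
Share of listed sites that were higher in Daxx-KO than in WT (percent, x axis) at each locus, for the 8 tables with the most sites at the loci (y axis). Bars are Wilson 95% intervals, which cover counting error only, and black ticks give the share over all listed sites of the table. The H3.3 and Pu.1 points of Runx1 and Runx3 lie to the right of the ticks at 3 w.p.i. The H3K27me3 points lie to the left of them at 24 w.p.i., at 4 of 18 for Runx1 and 0 of 13 for Runx2.

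Runx1, the member required for blood stem cells to emerge, had its highest H3K27ac values of 24 w.p.i. in introns and at P1. The site in the intron 19 kb upstream of P2 (chr16:92715101-92718300), part of which is printed above, had 5229 and 6398 normalized reads in Daxx-KO against 2861 and 3135 in WT. The groups did not overlap, and the log2 ratio was 0.96. The same stretch was higher at 3 w.p.i., in other mice: chr16:92716601-92719300 had 577 and 519 in Daxx-KO against 222 and 259 in WT, a log2 ratio of 1.18, and chr16:92715051-92716250 had 547 and 359 against 227 and 229. A further intronic H3K27ac site far downstream of P2, at chr16:92619751-92623250, had 3124 and 4801 in Daxx-KO against 1996 and 1728 in WT, a log2 ratio of 1.09. Close to P1, in the intron in which a conserved haematopoietic enhancer of Runx1 has been described, chr16:92801301-92802500 had 1272 and 1369 against 824 and 903 for H3K27ac. H3K27me3 at the overlapping stretch chr16:92801251-92802150 was 19.14 and 34.96 in Daxx-KO against 70.02 and 49.97 in WT, so the active and the Polycomb mark differed in opposite directions there.

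The distal promoter of Runx1, whose sequence opens the list above, differed in direction between the times. At 24 w.p.i. the H3K27ac site chr16:92824001-92826600 had 3269 and 3369 in Daxx-KO against 2307 and 2664 in WT, a log2 ratio of 0.42. At 3 w.p.i. chr16:92825601-92826750 had 107 and 114 in Daxx-KO against 168 and 179 in WT, a log2 ratio of -0.65. The libraries of the groups did not overlap at either time. H3K27me3 at chr16:92825401-92826350 was 22.3 and 38.6 in Daxx-KO against 120 and 60.0 in WT at 24 w.p.i. Pu.1 just inside the gene at chr16:92824401-92825250 was 84.3 and 49.5 in Daxx-KO against 26.6 and 22.4 in WT at 3 w.p.i.

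The proximal promoter of Runx1 had higher H3.3 and Pu.1 in Daxx-KO at 3 w.p.i. H3.3 at chr16:92697051-92698350 was 164 and 133 in Daxx-KO against 69.4 and 15.7 in WT, a log2 ratio of 1.78, and Pu.1 at chr16:92697351-92698150 was 53.6 and 51.9 against 24.0 and 12.8. At 24 w.p.i. H3K27me3 at chr16:92697051-92698050 was 33.5 and 25.8 in Daxx-KO against 78.4 and 156 in WT, a log2 ratio of -1.95. H3K27ac was split around the start: it was higher just upstream, at chr16:92697801-92698850, with 1116 and 972 against 708 and 567, and lower at chr16:92696301-92697250, with 320 and 313 against 532 and 394.

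H3K27me3 at Runx1 also differed by position. All 10 listed sites in the gene body and both in the upstream flank were lower in Daxx-KO at 24 w.p.i., whereas the 4 sites that were higher lay in the downstream flank, which also held 2 lower sites. The one with the most reads, chr16:92584651-92585450, had 132 and 154 in Daxx-KO against 94.3 and 62.8 in WT, and chr16:92585951-92587050 had 62.2 and 118 against 39.2 and 38.6. The groups did not overlap at these sites.

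**Figure D2:**
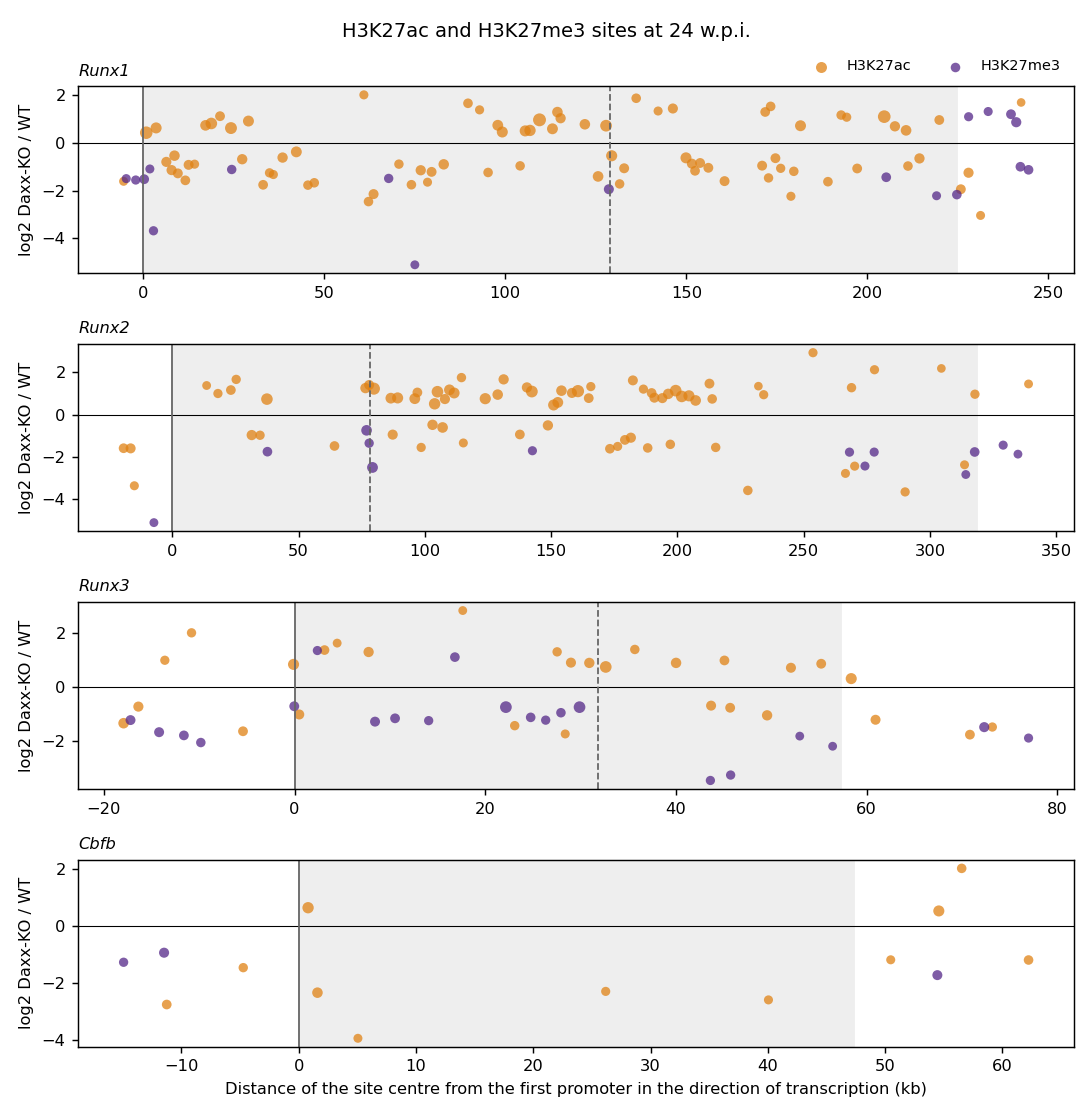
Log2 ratio of Daxx-KO to WT (y axis) of each listed H3K27ac site (orange) and H3K27me3 site (purple) at 24 w.p.i. against the distance of its centre from the first promoter (kb, x axis). Grey marks the gene body, the solid line the first promoter, the dashed line P2, and larger points have more normalized reads. The H3K27me3 points above 0 at Runx1 lie beyond the 3′ end of the gene, and all 13 at Runx2 lie below 0.

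Runx2, known for bone formation, had the clearest pattern at its proximal promoter. At 24 w.p.i. H3K27ac at chr17:44733501-44736450 was 1583 and 2058 normalized reads in Daxx-KO against 722 and 831 in WT, a log2 ratio of 1.23. H3K27me3 at chr17:44734551-44736500 was 76.6 and 33.1 in Daxx-KO against 297 and 331 in WT, a log2 ratio of -2.50. H3K9me3 at chr17:44735351-44736400 was also lower, with 12.8 and 12.5 against 52.9 and 31.9. At P2 of Runx2, then, H3K27ac was higher and both repressive marks were lower in Daxx-KO, with no overlap of the libraries for any of the 3. H3.3 beside the promoter was higher at both times, with 90.5 and 83.8 in Daxx-KO against 23.1 and 0 in WT at chr17:44737551-44738650 at 24 w.p.i. and 52.9 and 50.9 against 27.3 and 10.5 at chr17:44738001-44738700 at 3 w.p.i. Pu.1 at chr17:44734051-44734800 was 55.1 and 45.4 in Daxx-KO against 13.1 and 12.8 in WT at 3 w.p.i.

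The introns of Runx2 downstream of P2 carried several H3K27ac sites that were higher in Daxx-KO. The site chr17:44652651-44655700, which held 2 RUNX matches, had 1672 and 2706 in Daxx-KO against 1003 and 1024 in WT at 24 w.p.i., a log2 ratio of 1.11. At 3 w.p.i. chr17:44653551-44655700 had 321 and 352 against 117 and 203, and a second intronic site, chr17:44613651-44616400, had 489 and 505 against 272 and 263. That second stretch recurred at 24 w.p.i. as chr17:44614501-44616450, with 787 and 1136 in Daxx-KO against 461 and 414 in WT, a log2 ratio of 1.13. Nearer to P2, chr17:44710601-44712450 had 189 and 287 against 78.4 and 91.6 at 3 w.p.i., a log2 ratio of 1.47, and chr17:44671301-44673550 had 988 and 1231 against 593 and 447 at 24 w.p.i., a log2 ratio of 1.09. These intronic sites were higher in every Daxx-KO library than in any WT library.

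Runx3, a factor of T cells and other lymphocytes, had its highest H3K27me3 values between its promoters, and they were lower in Daxx-KO. At 24 w.p.i. chr4:135149101-135152000, just upstream of P2, had 641 and 518 in Daxx-KO against 820 and 1134 in WT, and chr4:135141301-135144350 had 621 and 626 against 803 and 1296, each with a log2 ratio of -0.75. H3K27ac over P2 at chr4:135152201-135154400 was 1025 and 940 in Daxx-KO against 631 and 546 in WT, a log2 ratio of 0.74. The groups did not overlap at these 3 sites. At 3 w.p.i. H3.3 upstream of P2 at chr4:135150101-135151600 was 135 and 167 in Daxx-KO against 59.6 and 20.95 in WT, and Pu.1 at chr4:135153051-135154400 was 157 and 115 against 52.2 and 25.6. A further Pu.1 site between the promoters, chr4:135139751-135141700, had 202 and 224 in Daxx-KO against 97.67 and 47.95 in WT, a log2 ratio of 1.54. Pu.1 and H3.3 were thus higher in Daxx-KO on both sides of P2 at 3 w.p.i.

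At P1 of Runx3 the values were less clear. H3K27ac at chr4:135120051-135121050 was 427 and 463 in Daxx-KO against 347 and 151 in WT at 24 w.p.i., while the overlapping site chr4:135120651-135121650 had 68.9 and 49.8 against 183 and 60.1, with overlap between the groups. H3K27me3 at chr4:135120151-135121100 was 60.6 and 58.0 in Daxx-KO against 82.2 and 114 in WT.

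Pu.1 in the Runx3 intron downstream of P2 was higher in Daxx-KO at both times, at sites that overlap in part. At 3 w.p.i. chr4:135157451-135159650, which holds the stretch printed above, had 273 and 181 in Daxx-KO against 99.8 and 70.3 in WT, a log2 ratio of 1.41, and at 24 w.p.i. chr4:135156801-135158150 had 195 and 240 against 8.64 and 31.6, a log2 ratio of 3.37. The second site does not reach the printed stretch. The last exon of Runx3 had opposite directions of H3.3 at the 2 times. H3.3 at chr4:135174401-135176700 was 372 and 308 in Daxx-KO against 113 and 57.6 in WT at 3 w.p.i., a log2 ratio of 1.98, whereas at 24 w.p.i. chr4:135175351-135176000 had 0 in both Daxx-KO libraries and 33.2 and 95.9 in WT. H3K9me3 at chr4:135175851-135176450 at 24 w.p.i. had 34.4 and 66.7 in Daxx-KO and 0 in both WT libraries. No fold is given for these, since 1 group was at 0. H3K27ac there was lower in Daxx-KO at 3 w.p.i., with 4.84 and 6.80 against 21.5 and 27.6 at chr4:135175651-135176350, and higher at 24 w.p.i., with 89.2 and 98.1 against 50.3 and 52.2 at chr4:135175551-135176250.

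Cbfb, which encodes the partner that all RUNX proteins share, had few sites, and those with the most H3.3 and Pu.1 at 3 w.p.i. lay in 1 intron. At 3 w.p.i. H3.3 at chr8:105211751-105213350 was 237 and 324 in Daxx-KO against 47.7 and 31.4 in WT, a log2 ratio of 2.79, and Pu.1 at chr8:105211651-105213350 was 293 and 283 against 40.7 and 89.5, a log2 ratio of 2.13. At 24 w.p.i. H3.3 at chr8:105212051-105213250 was lower in Daxx-KO, with 114 and 16.98 against 148 and 222, a log2 ratio of -1.49. The Pu.1 site held no GAGGAA or TTCCTC. Not all Pu.1 of the locus had this direction, since chr8:105155951-105156600 upstream of the gene had 7.88 and 6.48 in Daxx-KO against 50.1 and 83.1 in WT at 3 w.p.i. At the promoter, H3K27ac just inside the gene at chr8:105170851-105172100 was 619 and 605 in Daxx-KO against 403 and 384 in WT at 24 w.p.i., a log2 ratio of 0.64, and the overlapping site chr8:105171751-105172800 had 57.7 and 27.8 against 131 and 314. At 3 w.p.i. the weak H3K27ac site chr8:105170051-105170650 had 11.6 and 6.80 against 38.7 and 18.8. The promoter of Cbfb thus held sites of both directions side by side.

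**Figure D3:**
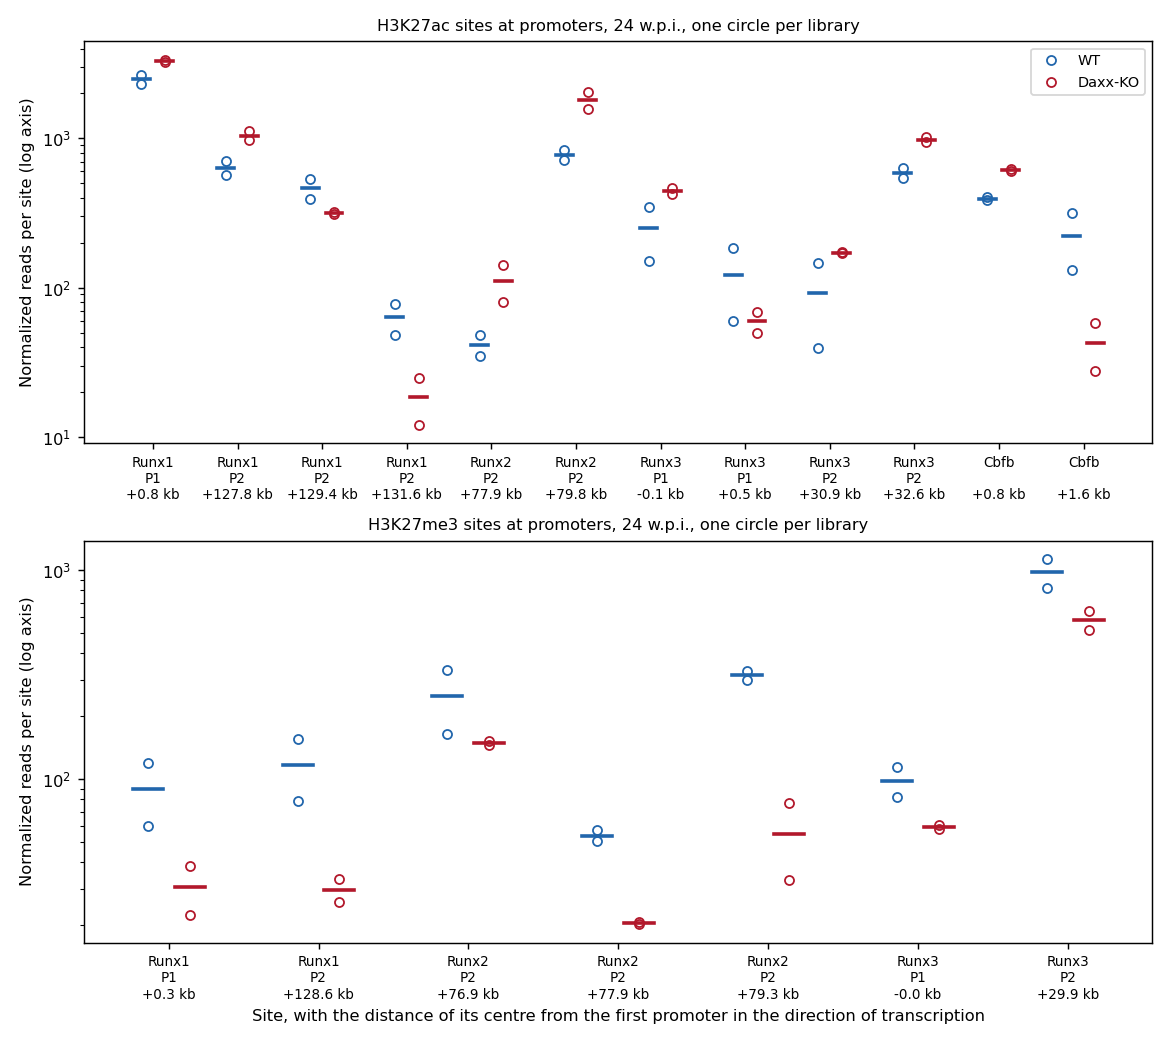
Normalized reads (log axis) at all promoter sites listed at 24 w.p.i. for H3K27ac (top, 12 sites) and H3K27me3 (bottom, 7 sites), ordered by distance from the first promoter, with a circle for each of 2 libraries per group and a bar for the mean, WT in blue and Daxx-KO in red. H3K27ac was higher in Daxx-KO at 8 of the 12 sites and lower at 4, and H3K27me3 was lower at 7 of 7.

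The sites were also described by level, a division that was chosen with earlier results known and is a description only. They were divided at the upper 10% of all listed sites by the mean of the higher group, which began at 53.2 normalized reads at 3 w.p.i. and at 268 at 24 w.p.i. Among strong sites of the loci, 32 of 34 were higher in Daxx-KO at 3 w.p.i. and 36 of 39 at 24 w.p.i., the latter being 14 of 17 at Runx1, 17 of 17 at Runx2, 3 of 3 at Runx3 and 2 of 2 at Cbfb. Among the other sites 31 of 63 and 67 of 158 were higher. All listed sites showed the same kind of split, with 59.1% against 39.5% at 3 w.p.i. and 68.2% against 39.6% at 24 w.p.i., so the split by level is no feature of these loci alone. Dividing instead by the mean over the libraries of both groups, an alternative chosen after seeing the data, gave 30 of 32 and 38 of 42 for the strong sites. For H3.3 at 3 w.p.i. 14 of 14 strong sites and 57 of 77 others were higher, and for Pu.1 13 of 13 and 63 of 81, against 78.9% and 57.2% of all H3.3 sites and 75.1% and 53.9% of all Pu.1 sites.

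**Figure D4:**
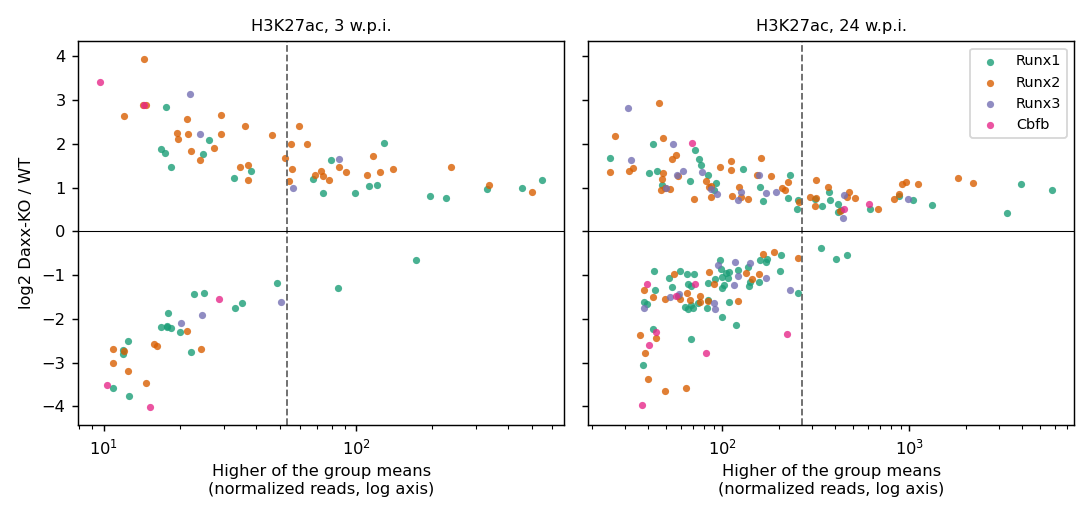
Log2 ratio of Daxx-KO to WT (y axis) of each H3K27ac site at the 4 loci against the mean normalized reads of the higher group (log axis, x axis) at 3 and 24 w.p.i. The dashed line starts the upper 10% of all listed sites, at 53.2 and 268. To its right 32 of 34 sites at 3 w.p.i. and 36 of 39 at 24 w.p.i. lie above 0.

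Sites of different tables were set side by side where they shared at least 1 bp. For H3K27ac, 57 of the 97 sites at 3 w.p.i. (58.8%) and 63 of the 197 at 24 w.p.i. (32%) overlapped in 67 pairs, and 47 pairs (70.1%) had the same direction, against 59.8% of the pairs of all listed sites. The direction was the same in 22 of 28 pairs at Runx1, 24 of 32 at Runx2 and 1 of 7 at Runx3. H3.3 had the same direction at both times in 15 of 31 pairs (48.4%), against 51.2% of all, and Pu.1 in 13 of 31 (41.9%), against 48.1%. H3.3 and Pu.1 of the same mice had the same direction in 40 of 47 pairs at 3 w.p.i. (85.1%), against 77.8% of all, and in 19 of 31 at 24 w.p.i. (61.3%), against 50.5%. In 36 of the 40 pairs both were higher. At 3 w.p.i. 78.0% of H3.3 and 80.9% of Pu.1 sites of the loci were higher, against 59.4% and 56.0% of all. More pairs of one direction follow from these shares alone.

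At 24 w.p.i. 33 of the 197 H3K27ac sites and 28 of the 55 H3K27me3 sites overlapped in 35 pairs. In 22 pairs (62.9%) H3K27ac was higher and H3K27me3 lower in Daxx-KO, against 38.4% of the 41350 pairs of all listed sites. In 12 pairs (34.3%) both were lower, against 35.2% of all, in 1 H3K27ac was lower and H3K27me3 higher, against 14.5%, and in 0 both were higher, against 12%. Since H3K27me3 was lower at 49 of the 55 sites, few pairs could have held a higher H3K27me3 site. The opposite pattern with more H3K27ac made up 6 of 8 pairs at Runx1, 7 of 8 at Runx2 and 8 of 17 at Runx3, where the other 9 pairs were lower in both marks. Both tables come from the same mice.

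At 8 w.p.i. H3K27me3 was compared between DKO and WT and between DKO and Daxx-KO. The loci held 9 sites in the first table, of which 8 were higher in DKO, against 56.1% of all, or 55.6% of the 9 without DKO replicate 1. They held 5 sites in the second, of which 4 were higher, against 65.3%. The libraries did not overlap at 5 of the 9 sites, against 89.6% of all, a lower share than in the rest of the table. The tables share their DKO libraries. The clearest sites lay upstream of Cbfb. The site chr8:105154851-105156700 had 127, 59.4 and 97.0 in DKO and 34.99, 21.74 and 38.01 in WT, a 2.99-fold ratio of the means, and chr8:105154251-105157200 had 180, 122 and 151 in DKO and 46.95, 61.95 and 48.7 in Daxx-KO, a 2.87-fold ratio. All 3 DKO libraries lay above all 3 libraries of either other group there. At chr8:105150701-105152750 DKO had 111, 127 and 127 and WT 61.2, 21.7 and 57.0.

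At P2 of Runx2 a single library set the means. The site chr17:44737251-44738550 had 440, 44.5 and 0 in DKO and 68.2, 49.8 and 26.8 in WT. The site chr17:44735851-44736550 had 149, 15.7 and 0 against 27.99, 9.06 and 12.3, and chr17:44734951-44735550 had 110, 1.75 and 0 against 16.6, 9.96 and 7.83. DKO replicate 1 was high and replicate 3 was at 0 at all 3 sites, and without replicate 1 their log2 ratios were -1.08, -0.98 and -2.73. Against Daxx-KO the nearby site chr17:44733301-44733900 was lower in DKO, with 11.3, 5.03 and 2.48 against 22.2, 15.2 and 34.9.

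The downstream flank of Runx1, where H3K27me3 was higher in Daxx-KO at 24 w.p.i., also held sites at 8 w.p.i. At chr16:92586901-92587600 DKO had 7.92, 10.5 and 10.9 and WT 1.75, 0 and 2.24, and at chr16:92586801-92587600 DKO had 10.0, 12.1 and 12.4 and Daxx-KO 0, 0 and 1.32. At the neighbouring site chr16:92583851-92584550 DKO was lower than WT, with 4.53, 3.49 and 2.18 against 10.5, 15.4 and 12.3. These are low values, a few reads per library at the depth of 8 w.p.i.

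**Figure D5:**
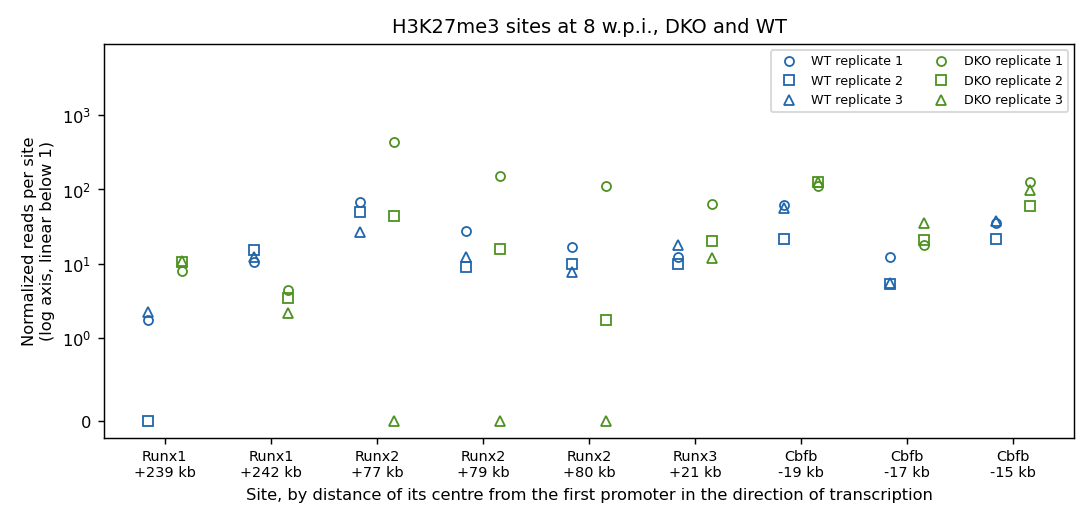
Normalized reads (log axis, linear below 1) at the 9 H3K27me3 sites of the loci listed for DKO (green) against WT (blue) at 8 w.p.i., with 3 libraries per group, named by the distance of the centre from the first promoter. At the 3 Runx2 sites DKO replicate 1 lies far above the other libraries and replicate 3 at 0, whereas at the Cbfb site at -15 kb the DKO libraries, at 127, 59.4 and 97.0, lie above all WT libraries.

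H3K9me3 had few sites at the loci before 24 w.p.i. At 3 w.p.i. there was 1, in the downstream flank of Runx3 (chr4:135197251-135198250), with 13.95 and 16.67 in Daxx-KO against 1.75 and 2.32 in WT, in a table in which 78.9% of sites were higher in Daxx-KO. At 8 w.p.i. 3 of 3 sites were higher in Daxx-KO than in WT, against 65.2% of all. They were chr17:44511751-44512550 at Runx2, with 17.2, 9.20 and 18.7 against 1.58, 5.06 and 3.75, chr17:44828851-44829800 upstream of Runx2, with 21.7, 14.7 and 17.4 against 4.74, 5.90 and 9.99, and chr4:135112301-135113200 upstream of Runx3, with 30.74, 11.95 and 13.37 against 4.74, 1.69 and 7.49. The 1 site listed for DKO against WT, where 81.4% of all sites were higher in DKO, was lower: chr4:135187601-135188200 had 15.1, 3.45 and 6.90 in DKO and 29.65, 21.18 and 27.93 in WT. The 1 site for DKO against Daxx-KO, where 73.4% of all were higher, was also lower: chr17:44829001-44830000 overlapped the Runx2 site above and had 0 in all 3 DKO libraries and 12.9, 8.98 and 21.5 in Daxx-KO. Of these DKO libraries, replicates 1 and 2 were shallow, with 0.69 and 0.2 reads per window in the comparison with Daxx-KO. Replicate 3 had 3.29, more than any Daxx-KO library there.

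The sites were also searched for the RUNX letters, TGTGGT on both strands, which the choice of sites did not use. For H3.3, 56.0% of the sites held a match at 3 w.p.i. and 51% at 24 w.p.i., against 48% and 50.1% of all listed H3.3 sites. The shares were 51.1% and 55.5% for Pu.1, against 48.4% and 50.2%, 57.7% and 50.3% for H3K27ac, against 49.8% and 52.8%, 56.4% for H3K27me3 at 24 w.p.i., against 50.6%, and 42.9% for H3K9me3, against 47.5%. The shares of sites with a match thus lay within 8 percentage points of those of all sites. Matches per kb lay further apart for some tables, with 1.47 for H3.3 at both times against 0.953 and 0.880 over all listed sites, 1.49 for Pu.1 at 3 w.p.i. against 0.960 and 1.42 for H3K27me3 against 0.895. The Pu.1 letters were in 58 of 94 Pu.1 sites at 3 w.p.i. (61.7%), against 54.6% of all, and in 62 of 110 at 24 w.p.i. (56.4%), against 57.1%. Among H3K27ac sites they were in 46 of 63 higher and 17 of 34 lower sites at 3 w.p.i., but in 64.1% and 63.8% of higher and lower sites at 24 w.p.i., and at 3 w.p.i. the higher sites were longer, with a median of 850 bp against 675.

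Genes that act with RUNX were counted in the same windows. The 14 partner genes encode factors that bind RUNX proteins, among them Ets1, an ETS factor, and Cbfa2t3, which encodes the co-repressor ETO2. Their H3K27me3 sites at 24 w.p.i. were higher in Daxx-KO at 30 of 112 (26.8%), against 41.2% of all listed sites, with 4 of 17 at Cbfa2t3 and 1 of 10 at Ets1. Tle3, a Groucho co-repressor named here after its values were seen, had 0 of 21. Their H3.3 and Pu.1 sites at 3 w.p.i. were higher at 112 of 144 (77.8%) and 115 of 148 (77.7%), close to the shares of the members. Their H3K27ac sites were higher at 43 of 152 (28.3%) at 3 w.p.i., against 41.5% of all and 64.9% at the members, and at 127 of 291 (43.6%) at 24 w.p.i., against 42.5% and 52.3%.

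The 14 genes counted as RUNX targets had 31 of 119 H3K27me3 sites higher in Daxx-KO at 24 w.p.i. (26.1%). The targets with the most listed sites over all 14 tables had 0 of 10 at Spi1, 1 of 5 at Csf1r, the receptor of macrophage colony-stimulating factor, and 0 of 6 at Zbtb7b, a factor of CD4 T cells. Other targets, named here after their values were seen, went the other way, with 13 of 14 at Gfi1b, an erythroid and megakaryocytic repressor, and 9 of 12 at Cd4, the T cell co-receptor. H3K27ac of the targets was higher at 95 of 175 sites at 24 w.p.i. (54.3%), against 42.5% of all listed sites. Spi1 held 17 of 25, Zbtb7b 10 of 19 and Csf1r 3 of 21. At 3 w.p.i. H3K27ac of the targets was higher at 40 of 90 (44.4%, interval 34.6 to 54.7), near the 41.5% of all listed sites. H3.3 was higher at 82 of 100 (82.0%), against 59.4% of all, and Pu.1 at 82 of 112 (73.2%), against 56.0%. The share of H3K27me3 sites higher in Daxx-KO at 24 w.p.i. was thus below that of all listed sites for the members, the partners and the targets.

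Markers of other cell types differed between the groups as well. At 24 w.p.i. 42.5% of all listed H3K27ac sites were higher in Daxx-KO. The 3 neutrophil markers (Ly6g, S100a8 and Camp) had 33 of 37 H3K27ac sites higher in Daxx-KO at that time. The sum over these sites was 33000 to 34300 normalized reads in Daxx-KO and 16200 to 18900 in WT. The erythroid markers Hba-a1 and Klf1 had 5 of 23 higher, with sums of 921 to 949 against 2030 to 2060. The B cell markers Cd79a and Ebf1 had 18 of 33 higher, with 3660 to 4110 against 2420 to 2780, and the T cell markers Cd3e and Cd3g 6 of 10, with 4190 to 4210 against 2620 to 2700. At 3 w.p.i. the counts were 7 of 11, 3 of 12, 19 of 30 and 0 of 5 in the same order, against 41.5% of all listed H3K27ac sites. The B cell count at 3 w.p.i. joined opposite genes, with 18 of 24 at Ebf1 and 1 of 6 at Cd79a. No list was at 0 in either group. The part of these cell types in the values of the members was not tested.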

How the data were processed

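The deposited tables hold, for each site and library, a normalized read count that the authors made with diffReps 1.55.6 on mm10. Per the file headers, reads were counted in 600-bp windows moved by 50 bp with fragments of 100 bp, and sites were built from neighbouring windows past a p cutoff of 0.0001. The deposited signal value is the count of reads divided by a constant of the library, and multiplying by it gave whole reads within 0.15 for 100% of the low values. The submitters' processing notes name CASAVA 1.8.4, STAR 2.5.3, cutadapt 1.13 and bedtools, with no role given. The tables also hold the authors' own comparisons (group averages, log2 fold changes, p-values, adjusted p-values and the direction of the event), which were not used. One of 15 deposited tables, for H3K27me3 at 8 w.p.i., was left out because its control columns belong to H3K9me3 libraries. Of 62 libraries, 54 were used, and 8 DKO libraries of 24 w.p.i. are not analysed here. Groups came from the labels. No pair of replicates shared more than 0.255% of its values.

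Sites that overlapped a gene body plus 20 kb in GENCODE M21 were taken. Since only selected sites are listed, no test was made. The direction is the sign of the difference of group means, ratios use a pseudocount of 1, and sites overlapped from 1 bp. The named sites included, per table and gene, at most 2 per direction with the largest log2 ratio. These were taken among sites without overlap of the libraries and with a mean of at least 10 in the higher group. Sites within 1 kb of a start site and sites overlapping a site of another table were added. The text names some of all these sites. Partner, target and marker lists used the same window. Some genes of these lists are not reported here. The members and lists were chosen with earlier results of these data known. Sequences are from RefSeq (GRCm38.p6) and mm10. Python 3.11.15, numpy 2.4.6, pandas 2.3.3, scipy 1.17.1 and matplotlib 3.10.9 were used, and the functions were tested on simulated data. Alternatives changed the window, the filter on low values, the pseudocount, the scaling, the joining and overlap of sites, and left out each library in turn.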

Additional observations from a re-analysis of the deposited data

Results flagged for a closer look

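Of the overlapping pairs of sites at 3 and 24 w.p.i., 16 of 31 had opposite directions for H3.3, 18 of 31 for Pu.1 and 20 of 67 for H3K27ac, so opposite directions were common. The 4 places below were taken from the sites that the text describes, among those with every Daxx-KO library on one side of every WT library at each time. Such separation is no finding about these places. It held for 15 of the 16 opposite pairs of H3.3, 17 of the 18 of Pu.1 and 16 of the 20 of H3K27ac. The difference between the times was not tested, and the mice differed. At P1 of Runx1, H3K27ac had a log2 ratio of Daxx-KO to WT of 0.42 at 24 w.p.i. and -0.65 at 3 w.p.i. At the last exon of Runx3, H3.3 had -6.03 at 24 w.p.i., where both Daxx-KO libraries were at 0 so that the size depends on the pseudocount, and 1.98 at 3 w.p.i. H3K27ac at the same exon had 0.86 at 24 w.p.i. and -1.90 at 3 w.p.i. In the Cbfb intron 42 kb downstream of the start, H3.3 had -1.49 at 24 w.p.i. and 2.79 at 3 w.p.i.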

How the results depend on the processing

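No paired analysis was possible because the results come from no test. Of 175 alternatives for the 14 shares, 169 kept the side and moved by less than the interval. Taking the gene body alone gave 100% (4 sites) for H3K27me3 of DKO against WT, 0% (1 site) for H3K27me3 of DKO against Daxx-KO and 55.4% for H3.3 at 24 w.p.i., and left no site in 3 H3K9me3 tables. H3K27ac at 24 w.p.i. was higher at 44.1% of sites with a ratio of at least 2-fold and at 49.3% after neighbouring sites were joined. Leaving out each library gave 55.6% to 88.9% for H3K27me3 of DKO against WT, the lowest without DKO replicate 1. The log2 ratios at the 3 sites at P2 of Runx2 ranged from -1.08 to 2.30, from -0.98 to 2.26 and from -2.73 to 2.19 as each library was left out, each lowest without DKO replicate 1. Overlaps of at least 50% of the shorter site left 19 of 31 pairs for H3.3 and 15 of 31 for Pu.1 between 3 and 24 w.p.i., 20 of 31 between H3.3 and Pu.1 at 24 w.p.i., and 0 of 1 for H3K9me3 between 8 and 24 w.p.i. Of 289 alternatives for 39 sites of the text, 243 moved by less than the spread between libraries, 43 by more and 3 reversed, and the causes were not tested. Scaling by the mean reads per window raised the ratios of H3K27ac at 24 w.p.i., for example from 0.42 to 0.98 at P1 of Runx1. Depth limits the 8 w.p.i. sites, at which libraries had as few as 0.2 reads per window, and regions that are not listed have no value.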

Other observations

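At 8 w.p.i. the partner genes had more H3K27me3 in DKO than in WT at most of their listed sites. The sites were higher in DKO at 37 of 40 (92.5%) for the 14 RUNX partner genes, of which 10 had a site, against 56.1% of all listed sites. The share was 92.5% without any 1 of the 6 libraries, an alternative chosen after seeing the data. This direction was not particular to the partners. The RUNX targets had 30 of 30 sites higher in DKO than in WT. The erythroid markers had 7 of 7, the neutrophil markers 6 of 7, the HSPC markers 6 of 8 and the T cell markers 2 of 3. The B cell markers went the other way, with 8 of 81. Against Daxx-KO the share of the partners was 33 of 50 (66.0%), beside 65.3% of all listed sites. Both comparisons share the DKO libraries, and no test was made. H3K9me3 at 24 w.p.i. was higher in Daxx-KO at 56 of 84 sites (66.7%) of the partners and 38 of 52 (73.1%) of the targets, beside 69.0% at the 4 loci and 48.1% of all listed sites.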
